A study of Mus musculus with 6 samples.

Results

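The transcripts of 10 established p53 target genes, *Cdkn1a*, *Mdm2*, *Ccng1*, *Phlda3*, *Trp53inp1*, *Gdf15*, *Sesn2*, *Eda2r*, *Zmat3* and *Pmaip1*, were compared between colons in which *Nedd4l* was deleted from intestinal epithelial cells (IECs) and control colons. They were taken by gene symbol and not by their values, and each symbol matched 1 of the 27202 genes in the table. The knockout group held 3 libraries of *Nedd4l fl/fl Villin Cre* colon (cKO), where both *Nedd4l* alleles are floxed and Cre is driven by the Villin promoter, which is active in the intestinal epithelium. The control group held 3 libraries of *Nedd4l fl/fl* littermates, called WT in the labels and here, which carry the same floxed alleles and no Cre. All mice were C57BL/6J, were 8 to 10 weeks old and were given 2% dextran sulfate sodium (DSS), which damages the lining of the colon and causes colitis. The colon was taken on day 7, and no undosed colon was analysed here. RNA came from whole colonic tissue, so each value is a mixture of IECs and other cells, and a difference in the number of cells of a type cannot be told apart from a difference in RNA per cell. The labels do not say that each library is a separate mouse, and the p-values measure the spread between these libraries.

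The transcription factor p53 is held at a low level by the ubiquitin ligase MDM2, whose gene is itself a p53 target, and it accumulates after DNA damage, replication stress and other insults. Its targets include brakes on the cell cycle, mediators of apoptosis, regulators of mRNA and of metabolism, and its own inhibitors. In the gut the proliferating cells lie in the crypts, where p53 and its target p21 are known for the response to irradiation. The question of the comparison was whether these genes differed between the genotypes in the same libraries in which DNA replication transcripts lay lower in the knockout.

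p53 binds response elements made of a pair of decamer sites. To show where such letters lie near these genes, the 250 bases before each RefSeq start site (GRCm38.p6) were searched with the p53 decamer consensus on both strands. The consensus reads the same on either strand, so that each match counts once. Only full matches were sought, so a decamer with a mismatch is neither counted nor put in capitals. RefSeq windows were found for 7 of the 10 genes (9 windows, with none for *Trp53inp1*, *Zmat3* and *Pmaip1*). A decamer was present in 3 of the 9 windows, against 7.13% of all 32851 windows of that length. A pair of decamers 0 to 13 bases apart was present in 1 of the 9, against 0.0639% of all windows (21 windows). The genes were listed because they are established p53 targets, so these shares are a description and no test. *Cdkn1a* and *Gdf15* have more than 1 window each among the 9. The 3 windows with a match are printed 5′ to 3′ on the strand of the gene, with the decamers in capitals. The distal of the *Cdkn1a* windows lies on the plus strand at chr17:29090729-29090978, and its decamers begin 73 and 51 bases before the start, with 12 bases between them. The bases that directly follow the second of these form another decamer with a mismatch, which was not counted. The capitals therefore need not mark the pair that p53 binds. The *Ccng1* window lies on the minus strand at chr11:40755287-40755536 and the *Mdm2* window on the minus strand at chr10:117710759-117711008, with 1 decamer each that begins 185 and 186 bases before the start.
Cdkn1a: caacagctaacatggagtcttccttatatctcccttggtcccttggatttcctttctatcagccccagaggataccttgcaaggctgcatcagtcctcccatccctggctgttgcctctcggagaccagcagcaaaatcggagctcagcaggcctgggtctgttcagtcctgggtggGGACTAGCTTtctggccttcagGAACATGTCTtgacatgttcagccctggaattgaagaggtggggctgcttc
Ccng1: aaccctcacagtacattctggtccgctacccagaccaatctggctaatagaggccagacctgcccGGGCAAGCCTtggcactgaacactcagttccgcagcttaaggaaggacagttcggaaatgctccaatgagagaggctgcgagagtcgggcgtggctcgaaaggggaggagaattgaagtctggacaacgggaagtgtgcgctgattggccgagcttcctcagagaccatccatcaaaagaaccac
Mdm2: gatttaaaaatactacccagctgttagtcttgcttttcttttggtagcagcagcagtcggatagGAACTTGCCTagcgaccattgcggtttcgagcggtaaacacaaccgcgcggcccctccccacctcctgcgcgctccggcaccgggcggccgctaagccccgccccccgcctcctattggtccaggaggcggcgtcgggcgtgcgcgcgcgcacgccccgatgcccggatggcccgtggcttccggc
A match in letters is not a measured binding site, and the p53-responsive promoter of *Mdm2* is known to lie in an intron, outside this window. The table's own start of a gene can differ from the RefSeq start.

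The values were normalized counts, which are reads per gene that the authors scaled by a size factor for each library, and the library totals were 14914367 to 17547270 in units of each library's smallest value. *Nedd4l* (ENSMUSG00000024589, chr18:64887705-65217831, plus strand) had 476, 942 and 566 normalized counts in cKO replicates 1, 2 and 3, against 1241, 1271 and 1266 in WT replicates 1, 2 and 3. Replicate 2 of the knockout was the nearest to the controls for *Nedd4l*, and over all genes its correlation averaged 0.977 with the WT libraries and 0.966 with the other cKO libraries. The log2 fold change of *Nedd4l* was −0.99 (SE 0.24; limma, adjusted p = 0.225), and without that library −1.28 (limma, adjusted p = 0.0131). All 12 epithelial markers were present in every library, and their sum ran from 248332 to 282702 normalized counts in cKO and from 264930 to 286106 in WT libraries, which overlap. The types of IEC were less even. All 6 colonocyte markers had a log2 fold change below 0 (median −0.69, 0 at an unadjusted p under 0.05), with medians against the control mean of −1.26, 0.075 and −0.94 in cKO replicates 1, 2 and 3, and sums that overlapped (23819 to 54352 against 42856 to 62235). The 7 goblet cell markers had medians of −0.52, 1.09 and 0.039 in these replicates, and their sums also overlapped (98866 to 459026 against 157387 to 317739). For 3 other cell types the sums did not overlap between the genotypes. Those of 6 neutrophil markers ran from 157 (replicate 2) to 7155 (replicate 1) against 98.1 to 140, with *Cxcr2* and *Mmp8* at 0 in at least 1 library. Those of 6 fibroblast markers ran from 20966 to 42446 against 10564 to 18057, and those of 7 macrophage and monocyte markers from 8539 to 10465 against 4853 to 8380, with no marker of either list at 0. The medians of the macrophage and monocyte markers did overlap, with 0.19, 0.73 and 0.37 in cKO and 0.38, −0.51 and 0.077 in WT replicates 1, 2 and 3. All 7 of these markers had a log2 fold change above 0, and 2 of the 7 did not overlap, against 21.4% of all genes. The part of these cells in the differences given here was not tested.

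The 10 genes lay on both sides of 0. None passed the adjusted threshold of 0.05 in limma, which also called 0 of the 16246 genes tested, and 3 of the 10 had an unadjusted p under 0.05, against 14.0% of all genes tested (2273). *Sesn2* and *Mdm2* were higher in cKO libraries, which was the case for 6.91% of all genes, and *Gdf15* was lower, which was the case for 7.08%. The genotypes did not overlap for 4 of the 10, against 21.4% of all genes: all 3 cKO libraries lay above all 3 WT libraries for *Sesn2*, *Mdm2* and *Ccng1* (10.5% of all genes) and below them for *Gdf15* (10.9%). The count of 3 changed when 1 library was left out. It was 0 without WT replicate 1 and 2 without cKO replicate 2 (*Gdf15* and *Mdm2*). It was 1 without WT replicate 2 (*Sesn2*), WT replicate 3 (*Cdkn1a*), cKO replicate 1 (*Gdf15*) or cKO replicate 3 (*Sesn2*). The counts over all 16246 genes changed as well, to 740 to 1424 lower and 793 to 1451 higher, against 1151 and 1122 with all 6 libraries. Without WT replicate 1 they were 855 and 968. The log2 fold changes of *Sesn2*, *Mdm2* and *Gdf15* were then 0.33, 0.25 and −0.86, against 0.36, 0.25 and −0.97. *Cdkn1a*, which encodes p21, the cell cycle brake that p53 is best known for, overlapped. Its log2 fold change of −0.13 had a 95% interval from −0.58 to 0.32, or 0.669 to 1.25 in fold. The median log2 fold change of the 10 genes was 0.10, against 0.0013 for all genes tested, with 7 of 10 above 0 against 50.2% of all genes.

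**Figure D1:**
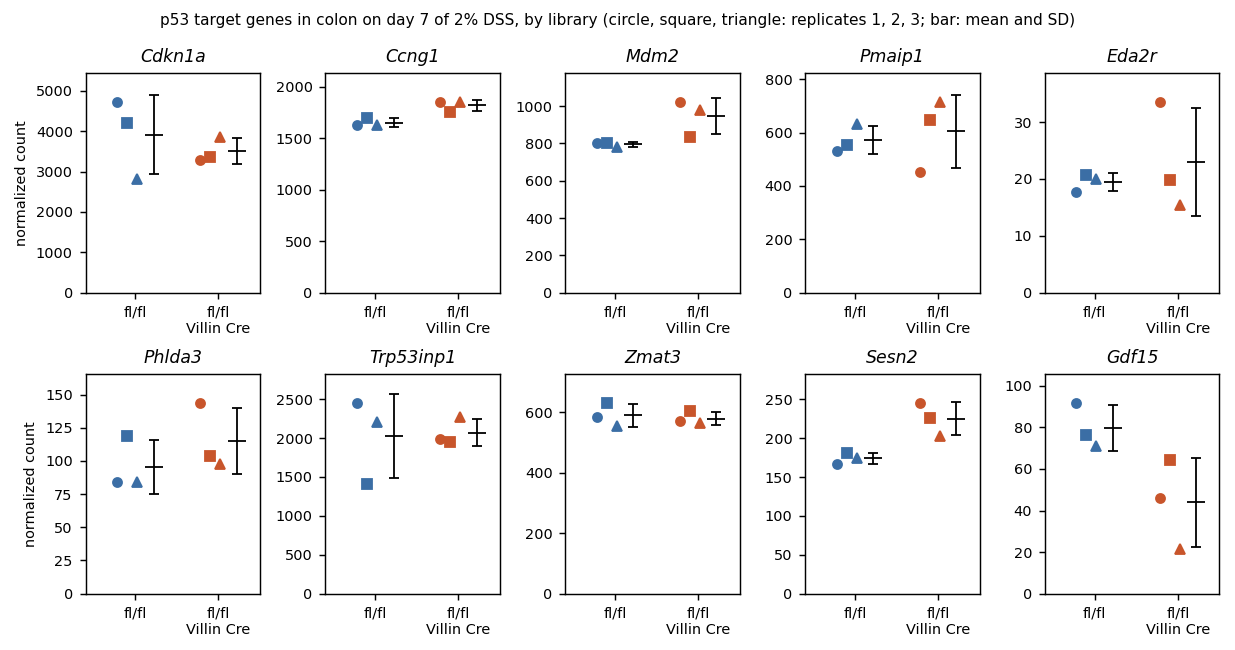
Normalized counts of the 10 p53 target genes in each library, on an axis from 0 in each panel, for the WT (fl/fl) and cKO (fl/fl Villin Cre) libraries, with the mean and SD of each genotype (n = 3) beside the points. The genotypes are separate for *Ccng1*, *Mdm2* and *Sesn2*, where the cKO libraries are higher, and for *Gdf15*, where they are lower, and they overlap for the other 6 genes.

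Among the cell cycle inhibitors and cyclins, *Cdkn1a* (ENSMUSG00000023067, chr17:29090976-29100727, plus strand) had 3288, 3369 and 3867 normalized counts in cKO replicates 1, 2 and 3 and 4727, 4206 and 2817 in WT replicates 1, 2 and 3. The lowest and the highest of the 6 libraries were both controls, and the knockout libraries lay between them. Mean levels were 3508 ± 314 and 3917 ± 988 (SD, n = 3 each), and limma gave a log2 fold change of −0.13 (standard error, SE, 0.19; limma, adjusted p = 0.780). Without WT replicate 3, the lowest library, the log2 fold change was −0.35 (limma, unadjusted p = 0.0172 and adjusted p = 0.448), whereas without WT replicate 1 it was 0.024. The genotypes no longer overlapped without WT replicate 3, but groups of fewer libraries separate more easily. The share of all genes without overlap was not computed for that fit. An unnamed gene on the opposite strand, AC167363.2, overlaps *Cdkn1a* in the annotation and had 38.9 to 65.2 normalized counts. Whether the counting used strand is not given in the sources used here, so reads of the pair cannot be told apart with certainty.

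*Ccng1* (ENSMUSG00000020326, chr11:40748552-40755311, minus strand) encodes cyclin G1, which recruits a phosphatase to MDM2. It had 1853, 1759 and 1853 normalized counts in cKO replicates 1, 2 and 3 and 1625, 1700 and 1633 in the WT replicates. The lowest knockout library stood above the highest control by less than the controls spanned among themselves. The means of 1821 ± 54.1 and 1652 ± 41.6 (SD, n = 3 each) gave a log2 fold change of 0.14 (SE 0.07, 95% interval −0.02 to 0.31, limma, adjusted p = 0.412). *Ccng1* was among the least variable of the 10 genes within each genotype.

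Of the genes that restrain p53 itself, *Mdm2* (ENSMUSG00000020184, chr10:117688875-117710758, minus strand) had 1023, 837 and 979 normalized counts in cKO replicates 1, 2 and 3 and 800, 804 and 782 in the WT replicates. The controls lay close together, and cKO replicate 2, the library with the most *Nedd4l* of its genotype, was the nearest to them. That library was also the nearest for *Ccng1* and *Gdf15*, but for *Sesn2* it was cKO replicate 3. The relation of these genes to the level of *Nedd4l* was not tested. Mean levels were 946 ± 97.2 and 795 ± 11.9 (SD, n = 3 each), and limma gave a log2 fold change of 0.25 (SE 0.10, 95% interval 0.02 to 0.47, 1.19-fold; unadjusted p = 0.0350 and adjusted p = 0.332). The exact permutation test gave a two-sided p of 0.10, the smallest that 3 against 3 allow, here and for *Ccng1*, *Sesn2* and *Gdf15*.

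The mediators of apoptosis overlapped between the genotypes. *Pmaip1* (ENSMUSG00000024521, chr18:66458604-66465550, plus strand) encodes NOXA, a BH3-only protein that binds MCL1. Its normalized counts were 452, 648 and 715 in cKO replicates 1, 2 and 3 and 531, 554 and 630 in the WT replicates, so that the knockout held both the lowest and the highest library. The log2 fold change was 0.06 (95% interval −0.34 to 0.46, limma, adjusted p = 0.896). *Eda2r* (ENSMUSG00000034457, chrX:97333840-97377216, minus strand), a receptor of the TNF receptor family for ectodysplasin A2, had the fewest reads of the 10 genes. It had 33.5, 19.9 and 15.5 normalized counts in the cKO and 17.8, 20.7 and 20.0 in the WT replicates, which overlap, and the log2 fold change of 0.16 (95% interval −0.66 to 0.98, limma, adjusted p = 0.859) was −0.14 without cKO replicate 1.

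*Phlda3* (ENSMUSG00000041801, chr1:135766119-135769136, plus strand) encodes a pleckstrin homology domain protein that competes with AKT for membrane lipids. It had 144, 104 and 98.0 normalized counts in cKO replicates 1, 2 and 3 and 83.9, 119 and 83.9 in the WT replicates. Replicate 1 of the knockout, which also held the highest neutrophil and fibroblast marker sums, was the highest library for *Phlda3*, *Eda2r*, *Mdm2* and *Sesn2*. It was also the highest for *Ccng1*, almost level with cKO replicate 3. It was the lowest library for *Pmaip1* and not the highest for *Cdkn1a*, *Trp53inp1*, *Zmat3* or *Gdf15*. The relation of the marker sums to these genes was not tested. WT replicate 2 alone made the genotypes of *Phlda3* overlap, and the log2 fold change was 0.27 (95% interval −0.27 to 0.81, limma, adjusted p = 0.615), or 0.43 without that library (limma, adjusted p = 0.584). It was 0.098 without cKO replicate 1 (limma, adjusted p = 0.901) and 0.18 without WT replicate 1 or 3.

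*Trp53inp1* (ENSMUSG00000028211, chr4:11156431-11174379, plus strand) encodes a stress protein that acts in autophagy and cell death, and *Zmat3* (ENSMUSG00000027663, chr3:32334792-32366014, minus strand) a zinc finger protein that binds RNA and regulates splicing and mRNA stability. *Trp53inp1* had 1984, 1949 and 2264 normalized counts in cKO and 2452, 1415 and 2208 in WT replicates 1, 2 and 3, with the controls spread more widely than the knockout and overlapping it. *Zmat3* had 569, 604 and 563 in cKO and 583, 631 and 554 in WT replicates, again overlapping. Their log2 fold changes were 0.06 (95% interval −0.42 to 0.55, adjusted p = 0.902) and −0.02 (95% interval −0.24 to 0.19, limma, adjusted p = 0.919). For *Zmat3* the interval leaves room for a fold between 0.848 and 1.14, the narrowest of the 6 genes that overlapped.

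*Sesn2* and *Gdf15* are targets of p53 that are also known targets of ATF4, the transcription factor of the integrated stress response, and they lay on opposite sides. *Sesn2* (ENSMUSG00000028893, chr4:132492032-132510501, minus strand) encodes sestrin 2, a leucine sensor that restrains mTORC1. It had 245, 226 and 203 normalized counts in cKO and 167, 181 and 175 in WT replicates 1, 2 and 3, with no overlap. Mean levels were 225 ± 21.1 and 174 ± 6.98 (SD, n = 3 each), and limma gave a log2 fold change of 0.36 (SE 0.14, 95% interval 0.04 to 0.68, 1.29-fold; unadjusted p = 0.0309 and adjusted p = 0.323). The gene *Gm12981*, which overlaps *Sesn2*, had at most 4.13 normalized counts.

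*Gdf15* (ENSMUSG00000038508, chr8:70629393-70632456, minus strand) encodes a secreted cytokine of the TGF-β superfamily that acts on a brainstem receptor and is released by stressed tissues. Its normalized counts were 46.0, 64.1 and 21.7 in cKO replicates 1, 2 and 3 and 91.8, 76.5 and 70.9 in the WT replicates. Every knockout library lay below every control, and replicate 3 was the lowest. Mean levels were 43.9 ± 21.3 and 79.7 ± 10.8 (SD, n = 3 each), and limma gave a log2 fold change of −0.97 (SE 0.38, 95% interval −1.85 to −0.08, 0.512-fold; unadjusted p = 0.0364 and adjusted p = 0.334). The size rested on cKO replicate 3, without which it was −0.54 (limma, adjusted p = 0.540). Without cKO replicate 2 it was −1.30 (limma, adjusted p = 0.134), and with libraries weighted by their fit to the model, which gave replicate 3 the most weight, −1.56 (limma, adjusted p = 0.0497).

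**Figure D2:**
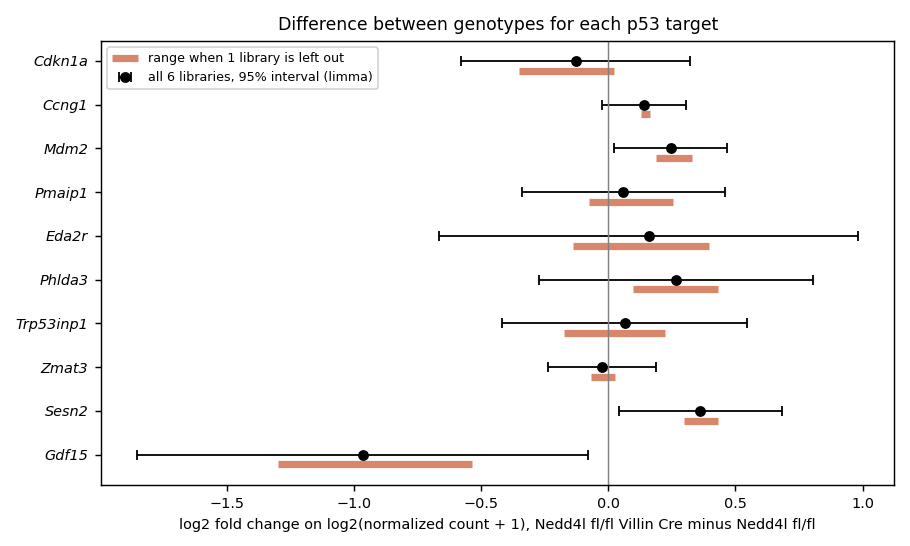
Log2 fold change (cKO minus WT, on log2(normalized count + 1)) of the 10 p53 target genes with its 95% interval from limma, and as a colored bar the range of values when each library was left out in turn. The intervals of *Mdm2* and *Sesn2* lie above 0 and that of *Gdf15* below 0, and the other 7 include 0.

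Levels were compared between the genes as normalized counts per kb of gene length in the table, averaged over the 6 libraries. *Cdkn1a* was the highest with 1045 per kb and stood at the 95.8th percentile of the 17151 protein-coding genes. *Ccng1* followed with 495 per kb, then *Trp53inp1* with 316, *Pmaip1* with 222 and *Mdm2* with 171, and *Phlda3*, *Sesn2* and *Zmat3* lay near the middle of the protein-coding genes with 67.6, 57.4 and 51.1 per kb. *Gdf15* had 33.4 and *Eda2r* 3.60 per kb, at the 40.8th and 19.6th percentile. Over the single libraries the ranges of *Cdkn1a*, *Ccng1* and *Eda2r* met those of no neighbor in this order. The ranges of *Trp53inp1* and *Pmaip1*, of *Pmaip1* and *Mdm2*, of *Phlda3* and *Sesn2*, of *Sesn2* and *Zmat3*, and of *Zmat3* and *Gdf15* overlapped, so that these neighbors were not separated.

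Each gene's log2 value was also set against its mean in the WT libraries and the median over the 10 genes taken per library. It was 0.087, 0.055 and 0.11 in cKO replicates 1, 2 and 3 and −0.019, 0.048 and −0.021 in the WT replicates. The lowest knockout library exceeded the highest control by a small part of the range among the controls, and 6, 7 and 7 of the 10 genes lay above the control mean in the 3 knockout libraries.

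Of 44 other p53 targets 42 were tested, and 0 passed the adjusted threshold. At an unadjusted p under 0.05, 6 of the 42 were higher and 2 lower in cKO libraries, against 6.91% and 7.08% of all genes tested. The genotypes did not overlap for 7 above and 4 below, against 10.5% and 10.9% of all genes, so that the lower genes were no more frequent than in the whole table. The median log2 fold change of the list was 0.06. *Pidd1*, a scaffold of the caspase-2 activating PIDDosome, had a log2 fold change of −0.86 (limma, adjusted p = 0.169), with 114 to 126 normalized counts in cKO against 196 to 256 in WT libraries. *Apaf1*, the core of the apoptosome, had a log2 fold change of 0.70 (limma, adjusted p = 0.211; 1119 to 1796 against 851 to 927 normalized counts), and passed the threshold without cKO replicate 2 (0.89, limma, adjusted p = 0.0262). *Plk2*, a polo-like kinase, had 0.50 (limma, adjusted p = 0.268; 294 to 353 against 203 to 268).

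*Trp53* itself (ENSMUSG00000059552, chr11:69580359-69591873, plus strand) had 983, 840 and 802 normalized counts in cKO and 1085, 1096 and 1114 in WT replicates 1, 2 and 3. All knockout libraries lay below all controls, and the log2 fold change was −0.33 (SE 0.10, unadjusted p = 0.00834 and adjusted p = 0.263). p53 is controlled largely at the protein level, which these libraries did not measure. Of 20 genes of p53 and its regulators 18 could be tested, with 0 higher and 3 lower at an unadjusted p under 0.05 (6.91% and 7.08% of all genes) and 0 past the adjusted threshold. The 3 were *Trp53*, *Chek1*, the ATR effector kinase of the replication checkpoint (log2 fold change −0.65, limma, adjusted p = 0.263), and *Usp10*, a deubiquitinase of p53 (−0.25, limma, adjusted p = 0.348). The genotypes did not overlap for 1 of the 18 above and 5 below, against 10.5% and 10.9% of all genes, and the median was −0.07.

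A list of 7 other genes with a cyclin-dependent kinase inhibitor symbol held the Cip/Kip and Ink4 inhibitors and *Cdkn3*, which encodes a phosphatase of CDK2 and belongs to neither family. Of the 6 that were tested, *Cdkn3* was higher at an unadjusted p under 0.05 (6.91% of all genes), with a log2 fold change of 0.74 (limma, adjusted p = 0.291). None of the 5 tested Cip/Kip and Ink4 genes had an unadjusted p under 0.05, and 2 of them lay above 0 and 3 below. The median of the 6, *Cdkn3* included, was −0.07. *Cdkn2c* (p18) had −0.31 and *Cdkn2b* (p15) −0.24, and both overlapped between the genotypes.

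**Figure D3:**
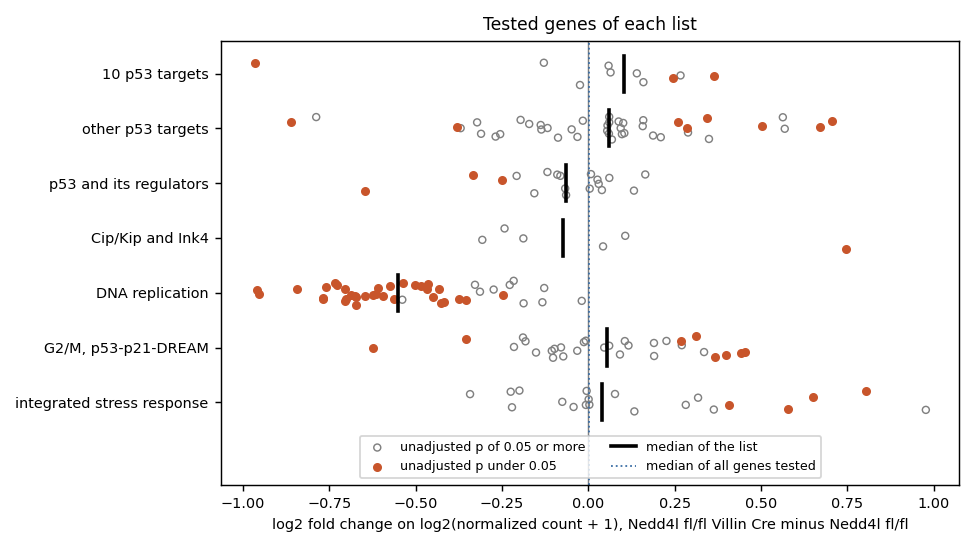
Log2 fold change (cKO minus WT, on log2(normalized count + 1)) of each tested gene in 7 lists, with filled points for an unadjusted p under 0.05, a bar at the median of the list and a dotted line at the median of all genes tested; the Cip/Kip and Ink4 row includes *Cdkn3*. The 44 DNA replication genes all lie below 0, and the other 6 lists lie on both sides of 0.

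The DNA replication genes, beside which the p53 targets were examined, lay on one side. All 44 listed were tested and had a log2 fold change below 0, with a median of −0.55. At an unadjusted p under 0.05, 34 of the 44 were lower, against 7.08% of all genes, and 0 higher. The genotypes did not overlap for 35, all of them below, against 10.9% of all genes, and 0 passed the adjusted threshold. *Uhrf1*, which couples replication to the maintenance of DNA methylation, had −0.95, *Pole*, the catalytic subunit of the leading strand polymerase, −0.96, and *Rfc3*, a subunit of the clamp loader, −0.70 (limma, adjusted p = 0.116 for each). *Uhrf1* passed the threshold without cKO replicate 1 (−1.05, limma, adjusted p = 0.0258) and without cKO replicate 2 (−0.91, limma, adjusted p = 0.0483), and *Pole* without cKO replicate 1 (−1.10, limma, adjusted p = 0.0258). Per library the median of the 44 against the control mean was −0.35, −0.57 and −0.71 in cKO replicates 1, 2 and 3 and −0.094, 0.037 and 0.072 in the WT replicates. In the same libraries the median of the 10 p53 targets differed from the control mean by 0.055 to 0.11. These replication genes were already known to lie lower in the same libraries, so that their count is not independent evidence of its direction.

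A set of 30 G2/M genes, whose repression by p53 is known to run through p21 and the DREAM complex, lay on both sides of 0, with 16 above and 14 below. At an unadjusted p under 0.05, 6 of the 30 were higher and 2 lower, against 6.91% and 7.08% of all genes, and 0 passed the adjusted threshold. The genotypes did not overlap for 8 above and 5 below, against 10.5% and 10.9% of all genes, and the median was 0.05. *Cdc25b*, a phosphatase that activates CDK1, had a log2 fold change of 0.45 (546 to 659 against 413 to 437 normalized counts, limma, adjusted p = 0.211). *Cdc20*, an activator of the anaphase-promoting complex, had 0.44, and *Mybl2*, a transcription factor of the G2/M program, −0.62. In cKO replicates 1, 2 and 3 the median of the list was 0.073, −0.086 and 0.22 against the control mean.

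Since *Sesn2* and *Gdf15* are shared with the integrated stress response, 21 other genes of that response were listed and 20 tested. At an unadjusted p under 0.05, 4 of the 20 were higher and 0 lower in cKO libraries, against 6.91% and 7.08% of all genes, and 0 passed the adjusted threshold. The genotypes did not overlap for 2 above, near the 10.5% of all genes, and 0 below (10.9%), and the median was 0.04. *Ddit4*, an inhibitor of mTORC1, had a log2 fold change of 0.58, *Cebpb*, a transcription factor of stress and inflammation, 0.65, and *Aldh1l2*, an enzyme of mitochondrial folate metabolism, 0.80. The libraries of the knockout differed among themselves. In replicate 1, with the highest neutrophil marker sum, 17 of the 20 genes lay above the control mean with a median of 0.43, and in replicates 2 and 3 it was 8 of 20 each with medians of −0.12 and −0.13.

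**Figure D4:**
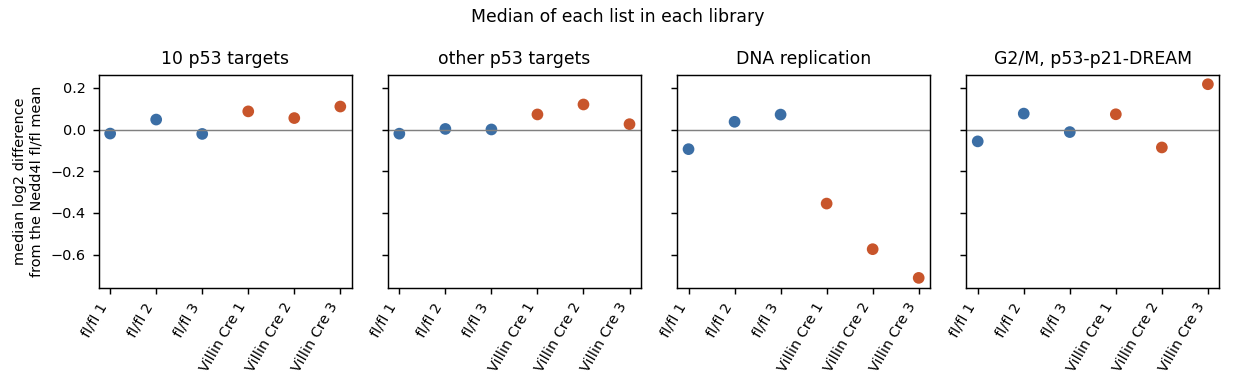
Median log2 difference from the mean of the WT libraries, per library, for the 10 p53 targets, the other p53 targets, the DNA replication genes and the G2/M genes. The DNA replication list is between −0.71 and −0.35 in the 3 cKO libraries (Villin Cre), the 10 p53 targets are between 0.055 and 0.11, and the G2/M list lies on both sides of 0.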

How the data were processed

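RNA from whole colon after DSS was sequenced in 3 cKO and 3 WT libraries (NEBNext Ultra RNA library kit). The submitters' processing notes name HISAT2 2.0.5 and featureCounts 1.5.0-p3, without roles, and the build hg18, a human build. Of the 27202 mouse identifiers 27164 are in GENCODE release 21 on GRCm38, and 97.0% of the genes have the same coordinates there, so coordinates are read as GRCm38. The authors deposited normalized counts, a signal in which each library's values are whole multiples (within 0.01) of its smallest value, 0.90 to 1.11. The authors' pooled means, log2 fold changes, p-values and adjusted p-values stand in the same table and were not used.

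Values were analysed as log2(value + 1), which understates the change of low genes, for 16246 genes with a mean of at least 10. They were fitted with limma 3.58.1 (lmFit, eBayes with trend and robust settings) under R 4.3.3, with Benjamini-Hochberg adjustment over all of them and a threshold of 0.05; the script was tested on simulated data. Single genes also had a two-sided exact permutation test (SciPy 1.17.1). The design named a count test for raw counts; the values were normalized, so limma was used. All members are described, and of each other list the 3 genes with the smallest unadjusted p are named, besides *Nedd4l* and *Trp53*. The members and lists were chosen with earlier results of these data known, and counts over a list carry no test. Alternatives were other pseudocounts, filters, quantile normalization, array weights, a replicate block and leaving out each library. Promoter windows and their build are RefSeq's.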

Additional observations from a re-analysis of the deposited data

How the results depend on the processing

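At this design 0 of the 10 p53 targets and 0 of 16246 genes passed the adjusted threshold. Counts of genes called lower and higher over the table became 23 and 7 with no filter on low values, and 369 and 262 with array weights, a fit that weighted cKO replicate 3 by 4.39 and replicate 1 by 0.41. Leaving out 1 library gave 0 to 52 lower and 0 to 70 higher, with 52 and 70 without cKO replicate 2 and 22 and 2 without cKO replicate 1. Array weights called 1 of the 10, *Gdf15* (log2 fold change −1.56, limma, adjusted p = 0.0497), and over all settings the members' adjusted p ran from 0.0497 to 0.996. The count of members at an unadjusted p under 0.05, 3 of 10, was 0 to 2 when 1 library was left out: 0 without WT replicate 1, and 2 without cKO replicate 2. Over all genes these fits gave 740 to 1424 lower and 793 to 1451 higher at that level, against 1151 and 1122 with all libraries. The count of members without overlap was 4 to 5 when 1 library was left out. Groups of fewer libraries separate more easily, and the share of all genes without overlap was not computed for these fits. The members' median of 0.10 was 0.064 at a minimum mean of 50, where *Eda2r* was not tested, and 0.062 to 0.14 when 1 library was left out.

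The sign turned for *Cdkn1a* with array weights (0.043) and without WT replicate 1 (0.024), *Eda2r* with array weights (−0.19) and without cKO replicate 1 (−0.14), *Trp53inp1* without WT replicate 2 (−0.17) and without cKO replicate 3 (−0.0035), *Zmat3* without WT replicate 2 (0.026), *Pmaip1* without cKO replicate 2 (−0.0041) and replicate 3 (−0.075), and *Cdkn2b* without cKO replicate 1 (0.028). Leaving out 1 library gave −0.35 to 0.024 for *Cdkn1a*, −0.14 to 0.39 for *Eda2r*, −0.17 to 0.22 for *Trp53inp1*, −0.067 to 0.026 for *Zmat3*, −0.075 to 0.25 for *Pmaip1* and −0.39 to 0.028 for *Cdkn2b*. The causes were not tested. Of 376 values of 29 named genes under 13 alternatives, 345 kept sign and side of the threshold, 21 passed it and these 10 turned. With array weights *Gdf15*, *Pidd1*, *Apaf1*, *Chek1*, *Trp53*, *Cdkn3*, *Uhrf1*, *Pole*, *Rfc3*, *Cdc25b*, *Cdc20*, *Mybl2*, *Ddit4* and *Nedd4l* passed, and with no filter *Uhrf1* and *Pole*. *Nedd4l* passed without cKO replicate 2 (−1.28, limma, adjusted p = 0.0131).

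Libraries of the same number did not deviate together (correlations −0.029, −0.090 and −0.056). These correlations cannot exclude a small effect shared by such libraries, so they do not decide whether the numbers pair them. With a replicate block, 2 of the 10 members had an unadjusted p under 0.05 (limma). Over all 16246 genes 1052 were lower and 1204 higher at that level in the same fit. It called 0 genes, and the median of the members was 0.10. The planned fits with edgeR and DESeq2 were not run, because whole reads were not taken as recovered for WT replicate 3, whose smallest value of 0.999 is close to 1.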
